A study of Mus musculus with 4 samples.

Results

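Single-cell RNA-Seq of sorted mouse undifferentiated spermatogonia (Aundiff) held 246 cells in which *Gfra1*, a stem cell-associated gene, was found together with *Sox3* or *Neurog3*, genes associated with progenitors, out of 7493 cells that passed quality filters. These double-positive cells were selected on measured values: over 1000 genes per cell, under 20% of UMIs (unique molecular identifiers, each counting 1 captured mRNA) from mitochondrial genes, a level of *Gfra1* over 2 and a level of the summed UMIs of *Sox3* and *Neurog3* over 2.5. A level here is the natural log of 1 plus the UMIs of the gene per 100000 UMIs of the cell. They are described against 1526 cells with a *Gfra1* level over 2 and no UMI of *Sox3* or *Neurog3* (Gfra1-only cells) and 2108 cells with no *Gfra1* UMI and a *Sox3* plus *Neurog3* level over 2.5 (progenitor-only cells). All mice were C57BL/6J of 6 to 8 weeks, either untreated (CTRL) or given 10 mg/kg busulfan (BU) and analysed at day 10, when the germline is regenerating. Cells were gated as E-cadherin+ CD49f+ c-KIT-, and each library held cells pooled from 3 mice. There were 2 CTRL and 2 BU libraries from 2 experiments. By replicate number, reagent kit and annotation, CTRL 1 and BU 1 were taken as the first experiment and CTRL 2 and BU 2 as the second. The 2 libraries of a condition are the only replicates, and no individual mouse can be traced within them.

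GFRα1 is the co-receptor through which undifferentiated spermatogonia respond to GDNF, the niche factor that sustains self-renewal of spermatogonial stem cells. SOX3, a transcription factor, and NEUROG3, a basic helix-loop-helix factor, mark cells that are primed to differentiate and respond to retinoic acid. The classes are usually drawn as successive states of 1 lineage, and cells positive for markers of both are the ones such a drawing places between them.

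The genes that set the gate are given as a description, with no test. *Gfra1* lies on the minus strand of chromosome 19 at 58235604 to 58455909, *Sox3* on the minus strand of chromosome X at 60891366 to 60893430 and *Neurog3* on the plus strand of chromosome 10 at 62133090 to 62134763 (GRCm38, GENCODE M21). The double-positive cells held 615 UMIs of *Gfra1*, 834 of *Sox3* and 167 of *Neurog3*. *Sox3* alone placed 139 of the 246 cells in the class, *Neurog3* alone 21, and 86 cells had UMIs of both. *Gfra1* summed over the double-positive cells was at 139, 111, 154 and 125 CPM (UMIs of the gene scaled to the total of its sum) in CTRL 1, CTRL 2, BU 1 and BU 2, below the 192, 179, 188 and 147 CPM of the Gfra1-only cells of the same libraries. *Sox3* was at 188, 185, 164 and 138 CPM, against 187, 225, 172 and 187 CPM in progenitor-only cells. *Neurog3* was at 69.0, 26.9, 27.3 and 16.8 CPM, against 96.5, 46.1, 47.5 and 19.6 CPM. *Gfra1* and *Neurog3* were thus lower in the double-positive cells than in the class each gene defines in all 4 libraries, whereas *Sox3* was at nearly the same CPM in CTRL 1 and lower in the other 3. The lowest *Gfra1* level inside the class was 2.00 and the highest just outside it 1.99, among 145 cells that met the other threshold and had a *Gfra1* UMI. The lowest *Sox3* plus *Neurog3* level inside was 2.51 and the highest outside 2.5, among 420 cells. In CTRL 1, a single UMI passed the *Gfra1* level in 96.9% of cells, but in only 17.0% of the deeper CTRL 2 cells. Accordingly 41 of the 246 cells rested on 1 UMI of each side, 30 of them in CTRL 1, 11 in BU 1 and 0 in the second experiment, where 36 of 49 cells (CTRL 2) and 20 of 23 cells (BU 2) had 3 or more *Gfra1* UMIs.

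The 4 libraries differed in depth. They held 26802228, 39904588, 21136369 and 53579969 UMIs over 3261, 2019, 2090 and 1859 deposited cells (CTRL 1, CTRL 2, BU 1 and BU 2), of which 3101, 1120, 2008 and 1264 passed the filters. The median double-positive cell had 8288, 31773, 10626.5 and 43722 UMIs, which was 1.23, 1.37, 1.06 and 1.36 times the median of Gfra1-only cells and 0.995, 0.904, 1.2 and 1.25 times that of progenitor-only cells. Cell barcodes were shared between libraries, most of all between CTRL 2 and BU 2, with 677 in common. CTRL 1 and BU 1 shared 11, CTRL 2 and BU 1 shared 1, and the other pairs none. Of the double-positive cells, 14 of 49 in CTRL 2 and 10 of 23 in BU 2 carried a barcode also present in another library, and 1 barcode was double-positive in both. The BU 2 cell of that barcode had 346254 UMIs and supplied 27.7% of all UMIs of the class in BU 2, and the CTRL 2 cell, with 140366 UMIs, supplied 7.40%. Results are therefore also given without cells of shared barcodes. A doublet caller, set to mark the cells with the highest scores at a rate of 0.8% per 1000 cells, marked 23 of the 246 double-positive cells (9.35%) against 2.32% of all cells. By library it marked 12.9%, 6.12%, 6.0% and 4.35% of double-positive cells, and between 0% and 2.44% of Gfra1-only and progenitor-only cells. Free RNA was gauged in cells with over 5% of their UMIs from spermatid genes, which should lack the gate genes. At 5000 UMIs per cell, 0 of 32, 0 of 81, 0 of 7 and 0 of 54 such cells carried UMIs of both *Gfra1* and *Sox3* or *Neurog3*, which allows shares of up to 9.38%, 3.70%, 42.9% and 5.56% by counting error alone. Single sides were found in them: a *Gfra1* UMI in 0, 3, 1 and 1 of these cells and a *Sox3* or *Neurog3* UMI in 1, 4, 0 and 1, or 3.13%, 4.94%, 0% and 1.85%. Their median depths before thinning were 11926.5, 33604, 14747 and 36231 UMIs.

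Germ cell markers were present throughout the double-positive cells. All 246 had a UMI of *Dazl*, a germ cell RNA-binding protein, and 223 each had UMIs of *Ddx4*, the germ cell helicase also called VASA, and of *Zbtb16*, which encodes the undifferentiated spermatogonial factor PLZF. *Kit*, whose protein was gated out, was found in 25 of the 246. In the first experiment these were 3 of 124 CTRL and 3 of 50 BU cells, and in the second, with its deeper libraries, 11 of 49 and 8 of 23. Of 17 somatic cell markers, the macrophage genes *Adgre1*, *Csf1r* and *Lyz2* and the steroidogenic genes *Cyp11a1* and *Hsd3b1* were at 0 in double-positive cells of every library, and the 17 together summed to 54.3, 143, 46.2 and 28.1 CPM, with *Clu*, a Sertoli cell-rich secreted chaperone gene, the most abundant. Of the 5 that could be tested, 4 were lower than in Gfra1-only cells, beside 4.80% of all genes, and 0 differed from progenitor-only cells. The Gfra1-only cells were less pure in the second experiment: 8 of 85 (CTRL 2) and 29 of 295 (BU 2) had no *Dazl* UMI, against 5 of 409 and 7 of 737 in the first, and the somatic markers summed to 97.8, 701, 64.8 and 443 CPM.

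The first comparison asked how common the double-positive cells were. In CTRL 1 they were 124 of 585 Gfra1+ cells, or 21.2% (95% exact binomial interval 18.0 to 24.7), and in CTRL 2 49 of 214, or 22.9% (17.4 to 29.1). In BU 1 they were 50 of 865, or 5.78% (4.32 to 7.55), and in BU 2 23 of 528, or 4.36% (2.78 to 6.46). The CTRL mean was 22.0% ± 1.2 and the BU mean 5.07% ± 1.01 (SD, n = 2 libraries each), so that both BU libraries lay below both CTRL libraries, by 15.4 percentage points in the first experiment and 18.5 in the second. The conditions overlapped when any UMI was enough (31.1%, 71.2%, 16.0% and 46.1% in CTRL 1, CTRL 2, BU 1 and BU 2), although BU stayed lower within each experiment, and with both levels over 3 the shares were 7.29%, 3.64%, 1.51% and 1.82%. With 2 libraries against 2, the exact two-sided permutation test cannot give less than p = 0.33, which was the value here. Among all cells the share was 4.19% ± 0.27 in CTRL and 2.15% ± 0.47 in BU (exact permutation p = 0.33). That difference turned when any UMI was enough, with 6.00% and 25.2% in CTRL and 7.32% and 28.6% in BU (exact permutation p = 0.67), and was -0.111 percentage points with both levels over 3. Of the cells positive for *Sox3* or *Neurog3*, by contrast, the double-positive cells were 8.50% and 8.54% in CTRL and 15.7% and 15.6% in BU, a difference of 7.14 percentage points in the other direction (exact permutation p = 0.33). The denominators moved with treatment too: Gfra1-only cells numbered 409 and 85 in CTRL and 737 and 295 in BU, and progenitor-only cells 1329 and 422 in CTRL and 265 and 92 in BU. Without shared barcodes the shares of Gfra1+ cells were 21.3%, 20.1%, 5.81% and 4.78%. When every cell was first thinned to 5000 UMIs and a UMI of each side was required, the shares were 22.5%, 35.9%, 7.38% and 10.7%, so the order of the conditions held while the libraries of the second experiment gave higher values than those of the first. At the same depth, *Sox3* or *Neurog3* was found less often in cells with a *Gfra1* UMI than in cells without one in each library, with 22.5% against 49.96% (CTRL 1), 35.9% against 48.1% (CTRL 2), 7.38% against 21.3% (BU 1) and 10.7% against 20.2% (BU 2).

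**Figure D1:**
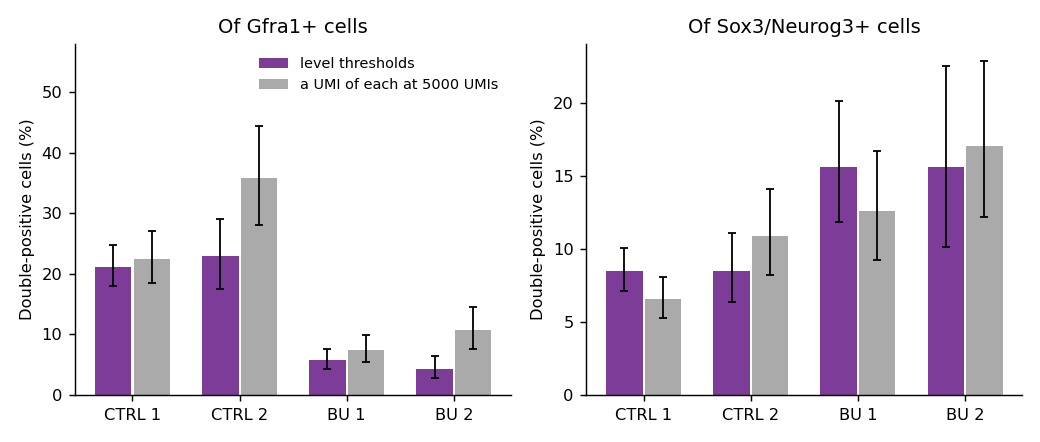
Double-positive cells as a percentage of Gfra1+ cells (left) and of *Sox3*/*Neurog3*+ cells (right) in each library, by the level thresholds (purple) and by a UMI of each side after thinning to 5000 UMIs (grey). Bars are shares and whiskers 95% exact binomial intervals, which cover counting error only; the BU libraries sit below the CTRL libraries on the left and above them on the right.

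The next question was where the cells lie, across genes, between the classes. UMIs were summed per library and class, so that fewer expressing cells and less RNA per cell cannot be told apart, and compared with edgeR's quasi-likelihood test with the library as a block, leaving out the 3 gate genes. Of 11704 genes tested, 470 (4.02%) were higher and 562 (4.80%) lower in double-positive than in Gfra1-only cells, at an adjusted p under 0.05. The split was 547 higher and 1234 lower with no filter on low counts and 497 and 491 without the cells marked as doublets. Against progenitor-only cells, 411 (3.51%) were higher and 209 (1.79%) lower, a balance that turned to 463 higher and 671 lower with no filter on low counts. Gfra1-only and progenitor-only cells, both with many more cells, differed from each other in 4273 genes (36.5%). These comparisons share their sums and are not independent of each other. Without the library block the counts were 3 and 38. Without shared barcodes they were 745 and 463, and without the cells marked as doublets 988 and 588.

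Position was measured on the 746 genes that differed by at least 2-fold between Gfra1-only and progenitor-only cells at a mean of at least 10 CPM, as the distance from Gfra1-only cells divided by the distance between the classes on log2(CPM + 1), so that 0 stands for Gfra1-only and 1 for progenitor-only. In the fit over all libraries, 667 of the 746 genes (89.4%) lay between the classes, at a median of 0.545. Within single libraries 80.7%, 83.9%, 70.1% and 77.2% of the genes lay between the classes (CTRL 1, CTRL 2, BU 1 and BU 2), and with every cell at 5000 UMIs 76.4%, 70.5%, 61.7% and 51.5% of 679 genes did. By library the median position was 0.645 (CTRL 1), 0.645 (CTRL 2), 0.434 (BU 1) and 0.426 (BU 2), a mean of 0.538 ± 0.124 (SD, n = 4). The CTRL sums thus lay nearer to progenitor-only cells than the BU sums did, with no overlap between the conditions. On linear CPM the medians were 0.681, 0.687, 0.503 and 0.482, which puts the BU sums near the midpoint. Genes higher in Gfra1-only cells (475 genes) had median positions of 0.609, 0.595, 0.384 and 0.387, and genes higher in progenitor-only cells (271 genes) of 0.711, 0.686, 0.556 and 0.5. On linear CPM that order turned in each library (0.730, 0.764, 0.531 and 0.566 against 0.560, 0.544, 0.429 and 0.340), so it depends on the scale. When the genes were chosen in the other experiment the medians averaged 0.627 in CTRL and 0.416 in BU, without shared barcodes 0.659 and 0.405, and with every cell thinned to 5000 UMIs 0.611 and 0.460. The 746 genes include some high in the Gfra1-only cells of the second experiment alone, such as *Gstm2*, *Vim* and *Lcn2*. Without cells holding over 1% somatic and spermatid UMIs the averages were 0.629 in CTRL and 0.419 in BU. Without cells lacking a *Dazl* UMI they were 0.631 and 0.417. Each position is relative to the reference classes of its own library, whose cell numbers and content also moved with treatment. *Stra8* and *Kit*, for example, were higher in BU than in CTRL progenitor-only cells in both experiments, as given below. Their part in the position was not tested.

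**Figure D2:**
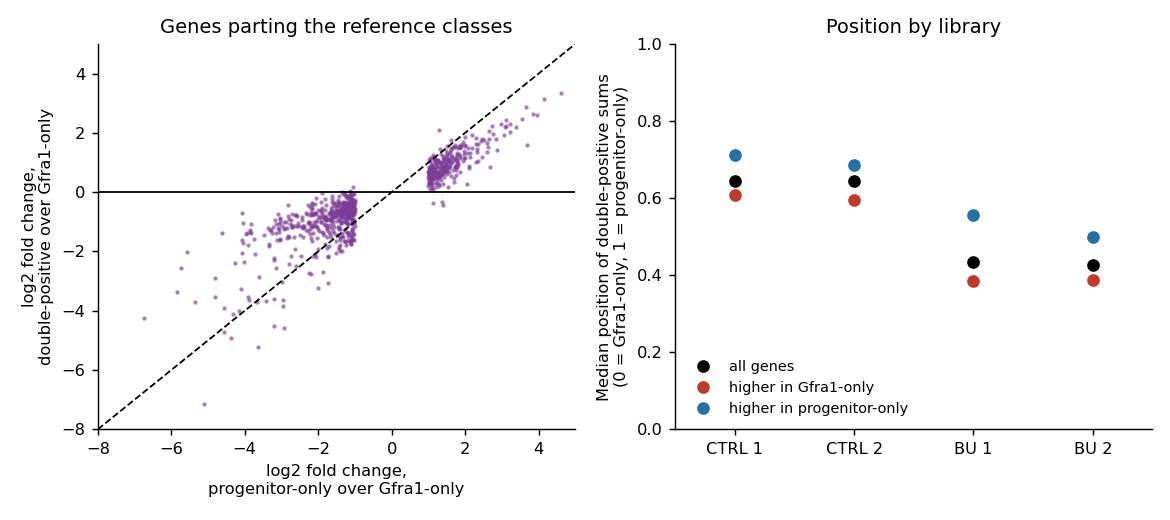
Left, log2 fold change of double-positive over Gfra1-only cells against that of progenitor-only over Gfra1-only cells for the 746 genes that part the reference classes (1 point per gene; the solid line is no difference from Gfra1-only, the dashed line no difference from progenitor-only). Right, median position per library on log2(CPM + 1) for all genes and for the genes higher in each reference class, with CTRL libraries at 0.645 and BU libraries at 0.434 and 0.426.

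Of 16 tested genes linked to spermatogonial stem cells, 11 were lower than in Gfra1-only cells and 0 higher (4.80% of all genes were lower). The list's median log2 fold change was -1.06 against -0.01 over all genes. Against progenitor-only cells 14 of the 16 were higher and 0 lower (3.51% of all genes were higher). The median there was 2.05 against -0.02 over all genes. *Tcl1*, which encodes a co-activator of AKT, was at 81.3, 56.3, 76.8 and 85.5 CPM in double-positive cells (CTRL 1, CTRL 2, BU 1, BU 2; TMM-scaled here and for all genes below), at 209, 154, 155 and 186 CPM in Gfra1-only cells and at 29.9, 19.4, 23.0 and 18.2 CPM in progenitor-only cells. Its levels did not overlap between the classes, and it was lower by 1.25 ± 0.12 on the log2 scale (SE, adjusted p = 3.18e-05) than in Gfra1-only and higher by 1.69 ± 0.13 (adjusted p = 7.37e-06) than in progenitor-only cells. *Nefm*, a neurofilament gene, was at 21.8, 65.9, 131 and 186 CPM, against 84.1, 236, 216 and 443 CPM in Gfra1-only and 3.84, 4.21, 16.4 and 23.3 CPM in progenitor-only cells. Within each library it lay between the classes, and its double-positive levels were higher in both BU libraries than in both CTRL libraries. *Etv5*, an ETS factor needed for stem cell self-renewal, was at 46.3, 32.5, 59.7 and 39.0 CPM, against 125, 66.6, 88.5 and 57.8 CPM and 15.9, 4.53, 14.1 and 9.57 CPM (adjusted p = 0.01 and 0.000107). *Eomes*, a T-box factor of the most primitive spermatogonia, was at 17.5, 4.06, 8.53 and 12.5 CPM against 39.4, 23.4, 38.2 and 38.7 CPM in Gfra1-only cells, a log2 fold change of -1.77 ± 0.24 (adjusted p = 0.000392). Of the list, *T*, which was at 0 in the double-positive cells of BU 1, and *Lhx1* alone were further below Gfra1-only cells. *Id4*, *Foxc2*, *Lhx2* and *Egr2*, transcription factor genes of the same list, were also called against both classes. *Ret*, the signalling partner of GFRα1, was not called against Gfra1-only cells (59.4, 62.9, 27.3 and 33.2 CPM against 90.7, 68.0, 59.2 and 58.6 CPM, adjusted p = 0.0759) and was higher than in progenitor-only cells by 1.28 ± 0.23 (adjusted p = 0.00383). *Nanos2*, a repressor of differentiation, was called against neither class. With the gate set at 5000 UMIs, 0 of the 16 genes were called against Gfra1-only cells while 14 were still called against progenitor-only cells. Without the library block the counts were 0 and 4.

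Of 10 tested readouts of GDNF and FGF signalling, a list that shares *Etv5*, *Bcl6b* and *Ret* with the stem genes, 3 were lower than in Gfra1-only cells (*Etv5*, *Dusp6* and *Spry1*; 4.80% of all genes were lower) and 8 higher than in progenitor-only cells (3.51% of all genes). The list's median log2 fold changes were -0.81 and 1.38, against -0.01 and -0.02 over all genes. The counts were 0 and 8 with the gate set at 5000 UMIs, and 0 and 4 without the library block. *Dusp6*, a phosphatase induced by and acting on ERK, was at 43.7, 41.6, 83.6 and 71.4 CPM, against 142, 132, 198 and 116 CPM in Gfra1-only cells and 12.5, 5.25, 20.8 and 4.79 CPM in progenitor-only cells (log2 fold change -1.29 ± 0.22, adjusted p = 0.00232, and 2.57 ± 0.26, adjusted p = 9.5e-05). *Spry1*, a feedback inhibitor of receptor tyrosine kinases, was at 18.4, 18.8, 22.2 and 18.3 CPM, against 28.8, 44.5, 34 and 48.2 CPM and 8.14, 6.02, 7.80 and 11.2 CPM. For both genes the 4 double-positive sums lay between those of the other classes without overlap. *Spred1* (35.8, 43.1, 83.6 and 58.1 CPM) and *Etv4* (32.3, 34.5, 61.4 and 59.8 CPM) were not called against Gfra1-only cells (adjusted p = 0.663 and 0.214), while both were higher than in progenitor-only cells, by 0.99 ± 0.13 and 1.71 ± 0.20. *Fgfr1* was called against neither class.

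**Figure D3:**
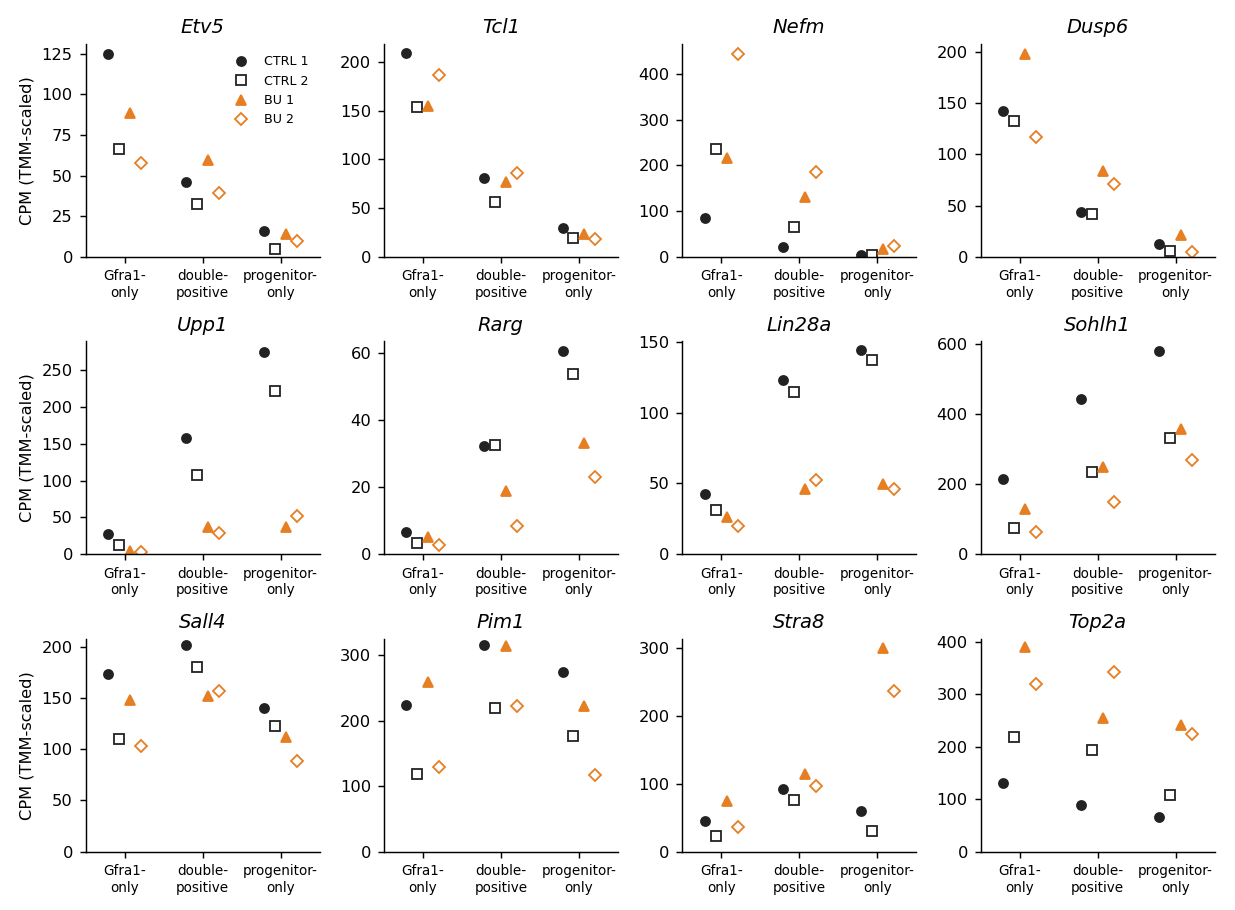
TMM-scaled CPM of 12 genes in the summed Gfra1-only, double-positive and progenitor-only cells of each library (1 symbol per library; CTRL black, BU orange, open symbols for the second experiment). The top row shows stem genes and a growth factor readout, which step down from left to right, the middle row progenitor genes, which step up in CTRL, and the bottom row genes highest in the double-positive cells (*Sall4*, *Pim1*), *Stra8*, called in neither comparison, and *Top2a*, called against progenitor-only cells alone.

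Of 10 genes tested that are linked to progenitors, 7 were higher than in Gfra1-only cells and 0 lower (median log2 fold change 1.25), whereas 3 were lower than in progenitor-only cells and 0 higher (median -0.37). Over all genes 4.02% were higher than in Gfra1-only cells (median -0.01) and 1.79% lower than in progenitor-only cells (median -0.02). *Upp1*, uridine phosphorylase, was at 157, 108, 37.5 and 29.1 CPM in double-positive cells, at 27.8, 11.9, 4.84 and 2.5 CPM in Gfra1-only and at 275, 221, 37.2 and 51.7 CPM in progenitor-only cells. It was higher than in Gfra1-only cells by 2.86 ± 0.21 (adjusted p = 8.81e-06) and lower than in progenitor-only cells by 0.79 ± 0.17 on the log2 scale (adjusted p = 0.0146), a call that was lost without either CTRL library; in BU 1 it stood at the progenitor-only level. *Rarg*, the retinoic acid receptor of progenitors, was at 32.3, 32.5, 18.8 and 8.30 CPM, against 6.62, 3.21, 5.24 and 2.80 CPM and 60.4, 53.6, 33.1 and 23.0 CPM (log2 fold changes 2.20 ± 0.24 and -0.88 ± 0.19). *Sohlh1*, a transcription factor of differentiating spermatogonia, was at 441, 234, 249 and 150 CPM, against 214, 74.8, 129 and 64.0 CPM and 581, 331, 356 and 269 CPM, and was likewise called against both. Another 4 genes were called against Gfra1-only cells and not against progenitor-only cells. *Lin28a*, an RNA-binding pluripotency factor, stood at 123, 115, 46.1 and 52.3 CPM beside 144, 137, 49.8 and 45.9 CPM in progenitor-only cells (adjusted p = 0.762). *Nanos3*, an RNA-binding protein gene, stood at 138, 96.3, 73.3 and 75.5 CPM beside 174, 150, 59.8 and 68.6 CPM (adjusted p = 0.42). *Ddit4*, an inhibitor of mTORC1, stood at 99.6, 59.3, 29.0 and 29.9 CPM beside 160, 105, 61.3 and 40.8 CPM (adjusted p = 0.0518). *Sall1*, a zinc finger factor gene, stood at 15.7, 19.8, 6.82 and 8.30 CPM beside 21.2, 29.3, 7.80 and 11.2 CPM (adjusted p = 0.306). *Piwil4*, *Sohlh2* and *Pou5f1* were called in neither comparison. Requiring the gate at 5000 UMIs left 3 of the 10 genes called against Gfra1-only cells and 3 against progenitor-only cells, and leaving out the library block left 0 and 0.

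Of 8 genes shared by all undifferentiated spermatogonia, 3 were higher than in Gfra1-only cells (*Zbtb16*, *Sall4* and *Foxo1*) and 2 higher than in progenitor-only cells (*Sall4* and *Itga6*), with 0 lower in either comparison (4.02% and 3.51% of all genes were higher). With the gate set at 5000 UMIs the counts were 0 and 1, and without the library block 0 and 0. *Ddx4* and *Dazl* were called against neither class (log2 fold changes between 0.00 and 0.03), while *Zbtb16* (260, 272, 287 and 205 CPM against 191, 163, 207 and 122 CPM) and *Foxo1* (211, 162, 165 and 118 CPM against 150, 67.5, 119 and 69.9 CPM) were higher than in Gfra1-only cells. *Itga6*, the gene for the sorted antigen CD49f, was at 43.7, 65.9, 80.2 and 88.8 CPM, against 26.3, 28.8, 40.9 and 32.5 CPM in progenitor-only cells, higher by 1.11 ± 0.14 (adjusted p = 0.000359). Of 7 tested genes of retinoic acid response and entry into differentiation, 0 were called against Gfra1-only cells by edgeR and 3 were higher than in progenitor-only cells (3.51% of all genes). Against Gfra1-only cells DESeq2 called 1 of them lower. There edgeR called 1 higher and 1 lower without the cells marked as doublets, without other cell types or without cells lacking *Dazl*. It called 2 higher and 1 lower with no filter on low counts, 1 lower with every cell at 5000 UMIs, and 2 higher without CTRL 2. The 3 higher than in progenitor-only cells were *Ccnd2*, a G1 cyclin (579, 473, 983 and 807 CPM against 249, 104, 300 and 162 CPM), *Cyp26a1*, a retinoic acid-degrading enzyme (7.87, 6.08, 15.4 and 11.6 CPM against 3.20, 1.68, 3.72 and 3.83 CPM), and *Dhrs3*, a retinaldehyde reductase. *Ccnd2* was higher still in Gfra1-only cells, at 967, 620, 1328 and 929 CPM without TMM scaling. In all, 4 of the 7 genes had a positive fold change over progenitor-only cells. *Dmrtb1* and *Kit* had log2 fold changes of -0.93 there, without a call. *Stra8*, which retinoic acid induces, was at 91.8, 75.6, 114 and 97.1 CPM in double-positive cells and at 45.3, 23.4, 75.1 and 36.1 CPM in Gfra1-only cells, higher in each library but short of the threshold (log2 fold change 1.32 ± 0.40, adjusted p = 0.0514). In progenitor-only cells *Stra8* was at 60.7 and 31.1 CPM in CTRL and at 300 and 237 CPM in BU, so double-positive cells exceeded them in CTRL and fell short of them in BU. *Kit* took the same course, at 2.62, 9.63, 6.82 and 27.4 CPM in double-positive and 1.92, 4.99, 55.7 and 76.3 CPM in progenitor-only cells, without a call.

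Among called genes with a mean of at least 20 CPM that changed the same way in every library, the largest rises over Gfra1-only cells were in *Phlda2*, an imprinted growth regulator, the listed *Upp1*, *Igfbp6*, which binds insulin-like growth factors, *Tet3*, a 5-methylcytosine dioxygenase, *Lmo1* and *Eef2k*. *Phlda2* was at 65.5, 46.1, 20.5 and 14.1 CPM against 7.61, 1.84, 2.75 and 2.80 CPM, higher by 3.13 ± 0.25 (adjusted p = 9.87e-06). *Tet3* was at 40.2, 64.9, 35.8 and 37.4 CPM against 8.94, 14.7, 13.7 and 9.19 CPM (1.98 ± 0.17, adjusted p = 1.83e-05), and at 66.9, 89.4, 81.8 and 76.9 CPM in progenitor-only cells (adjusted p = 0.00412), so its 3 classes did not overlap. *Mycn*, a MYC family gene, was at 42.8, 50.2, 42.6 and 36.5 CPM, against 16.2, 8.26, 16.5 and 13.1 CPM in Gfra1-only and 54.5, 56.5, 30.8 and 46.3 CPM in progenitor-only cells, and was called only against the former. The 10 largest falls below Gfra1-only cells by these limits were of another kind. *1500015O10Rik*, *Ifitm3*, *Bcam*, *Kctd14*, *Gstm2*, *Lcn2*, *Mgst1*, *C3*, *Vim* and *Tmem176a* were high in the Gfra1-only cells of the second experiment alone. *Lcn2*, an iron-binding secreted protein, was at 6.62, 234, 4.58 and 151 CPM there and at 0, 18.3, 0 and 0.83 CPM in double-positive cells, and *Gstm2*, a glutathione transferase, at 24.5, 543, 10.7 and 279 CPM and 0.874, 22.3, 5.12 and 4.98 CPM. The somatic markers moved with them, as given above. An alternative added after these levels were seen leaves out cells without a *Dazl* UMI. There 8 of the 10 genes could be tested and 3 were called. Of the 16 stem genes 13 were lower than in Gfra1-only cells, beside 545 of all 11635 genes tested.

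By the same limits, the largest rises over progenitor-only cells were in *Lhx1*, *Nefm*, *Dusp6*, *Etv5*, *Foxc2* and *Ppfibp2*, followed by *Ccnd2*, *Id3*, *Pmaip1* and *Prrx2*. *Lhx1*, a LIM homeobox factor responsive to GDNF, was at 7.87, 7.10, 47.8 and 88.0 CPM, against 2.29, 0.648, 5.57 and 3.51 CPM, higher by 3.54 ± 0.53 (adjusted p = 0.00114). *Id3*, an inhibitor of basic helix-loop-helix factors, was at 29.7, 23.8, 39.2 and 45.7 CPM against 10.8, 6.80, 12.3 and 9.25 CPM (1.79 ± 0.23, adjusted p = 0.000359). The largest falls were in *Ifitm1*, *Loxl2*, *Rac3*, *Esx1*, *Hspa1a*, *Igfbp6*, *Hspg2*, *Vill*, *Lmo1* and *Cthrc1*. *Igfbp6* was at 94.4, 60.8, 34.1 and 34 CPM against 218, 163, 56.5 and 73.7 CPM in progenitor-only and 24.8, 7.35, 7.20 and 7.09 CPM in Gfra1-only cells, and *Hspg2*, the basement membrane proteoglycan perlecan, was at 55.1, 21.3, 5.12 and 5.81 CPM against 91.3, 50.8, 24.5 and 22.0 CPM and 9.60, 4.13, 3.53 and 2.00 CPM. The inducible chaperone gene *Hspa1a*, which has a near-identical copy in *Hspa1b*, was at 32.3, 17.7, 6.82 and 9.13 CPM, against 4.30, 0.459, 1.96 and 1.90 CPM in Gfra1-only and 53.8, 51.6, 16.0 and 27.8 CPM in progenitor-only cells. The immediate early gene *Fos* took the opposite course, at 19.2, 7.61, 18.8 and 15.8 CPM against 33.4, 24.8, 39.4 and 29.4 CPM and 4.85, 1.94, 5.95 and 3.19 CPM, and was called against both classes. Of the 7 stress genes tested, 2 were higher and 2 lower than in Gfra1-only cells, and 2 higher and 1 lower than in progenitor-only cells, beside 4.02% higher and 4.80% lower, and 3.51% higher and 1.79% lower, of all genes.

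By the test, 8 of 11704 genes (0.0684%) were called above both classes and 2 (0.0171%) below both. *Sh3d19*, which encodes an SH3 domain protein, was at 27.1, 64.4, 52.9 and 41.5 CPM, against 12.6, 19.3, 30.0 and 16.5 CPM in Gfra1-only cells and 15.5, 27.1, 39.0 and 16.6 CPM in progenitor-only cells (1.28 ± 0.17, adjusted p = 0.000392, and 0.99 ± 0.17, adjusted p = 0.00229). *Lima1*, an actin-binding protein gene, was at 44.6, 109, 56.3 and 65.6 CPM, against 37.7, 44.5, 41.6 and 30.4 CPM and 33.1, 50.4, 45 and 31.6 CPM. *Sall4*, a zinc finger factor of undifferentiated spermatogonia, was at 202, 180, 152 and 157 CPM, against 173, 110, 148 and 103 CPM and 141, 123, 112 and 88.7 CPM. *Pim1*, a serine/threonine kinase gene, was at 315, 219, 314 and 222 CPM, against 224, 118, 259 and 130 CPM and 274, 176, 222 and 117 CPM. In each library these 4 genes were highest in the double-positive cells, although the sums of different libraries overlapped. *Clic6*, *Pola1*, *Ube2q2* and *Tmem267* completed the 8, the last at 0.874 and 0 CPM in the first experiment and 80.6 and 84.7 CPM in the second. *Rnf181* and *1190007I07Rik* were the genes below both. Each of these calls was lost in some of 16 alternatives: *Sh3d19* kept it in 13, *Lima1* in 12, *Sall4* and *Pim1* in 8. None of the 10 was called in both comparisons once every cell was thinned to 5000 UMIs, and without shared barcodes 5 genes lay outside. The balance was not stable either, with 1 gene above and 6 below with the gate at 5000 UMIs, 13 and 39 with no filter on low counts, and 4 and 7 without CTRL 2.

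Of 18 mitotic genes tested, 0 were called against Gfra1-only cells by edgeR or DESeq2, and 3 (*Top2a*, *Mki67* and *Nusap1*) were higher than in progenitor-only cells, where 15 of the 18 had a positive fold change and 3.51% of all genes were called higher. These 3 calls were lost without BU 2, without cells over 3 times the median depth, with every cell at 5000 UMIs, without the library block and with cells of a *Gfra1* level of 2 or less counted as progenitor-only. *Top2a*, topoisomerase II alpha, was at 90.0, 194, 256 and 344 CPM, against 65.5, 109, 242 and 225 CPM in progenitor-only cells (0.53 ± 0.12, adjusted p = 0.0192). Of 17 S-phase genes, *Pcna*, the replication clamp, and *Slbp*, which binds histone mRNA, were lower than in Gfra1-only cells, by 0.51 ± 0.12 and 0.41 ± 0.12 on the log2 scale, and *Mcm3*, *Rrm2* and *Uhrf1* were higher than in progenitor-only cells, where all 17 had a positive fold change. Over all genes, 4.80% were lower than in Gfra1-only cells, and the 2 S-phase calls were lost without CTRL 1, without BU 1, with the gate set at 5000 UMIs, with every cell at 5000 UMIs and without the library block, while the 3 against progenitor-only cells were lost with that gate and without the block. *Dnmt3b*, a de novo DNA methyltransferase gene, was at 106, 57.8, 56.3 and 60.6 CPM, against 41.7, 21.6, 52.9 and 25.3 CPM in Gfra1-only and 121, 83.8, 144 and 100 CPM in progenitor-only cells, and was called against both (1.07 ± 0.18, adjusted p = 0.00196, and -0.62 ± 0.16, adjusted p = 0.0403). The second call was lost without CTRL 2, BU 1 or BU 2, without doublets, without the library block, with the gate or every cell at 5000 UMIs and with cells of a *Gfra1* level of 2 or less counted as progenitor-only, and in BU 1 *Dnmt3b* stood near the Gfra1-only level. *Dnmt3a*, the other such gene, was higher than in Gfra1-only cells by 0.62 ± 0.14 (adjusted p = 0.0146). Of 8 DNA methylation genes, 2 were higher than in Gfra1-only cells and 0 lower, and 1 was higher and 1 lower than in progenitor-only cells, beside 4.02%, 3.51% and 1.79% of all genes. Of 6 adhesion genes, *Mcam* and *Epcam* were lower than in Gfra1-only cells, beside 4.80% of all genes. Another comparison, with progenitor-only cells, had 3 of the 6 higher, beside 3.51% of all genes. With the gate set at 5000 UMIs the counts were 0 and 4, and without the library block 0 and 1. *Mcam* was at 55.9, 72.5, 76.8 and 115 CPM, against 139, 131, 134 and 157 CPM in Gfra1-only and 28.6, 31.0, 39.8 and 42.1 CPM in progenitor-only cells, and was called against both. Of 6 spermatocyte genes 0 were called in either comparison by edgeR. Of 10 spermatid genes 3 were lower than in Gfra1-only cells, beside 4.80% of all genes. Their summed level was 1342, 7213, 701 and 1936 CPM in Gfra1-only cells against 1143, 639, 308 and 1224 CPM in double-positive cells.

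A sum can be intermediate because its cells are intermediate, because it holds cells of both kinds, or because a barcode holds 1 cell of each kind. The last would also give an intermediate ratio in a single barcode. Cells marked as doublets, more frequent among double-positive cells as given above, were kept here, and their part in the ratios was not tested. After thinning to 5000 UMIs, which left out 5 of the 246 cells, UMIs of the 17 stem genes and of the 10 progenitor genes were compared in each cell as log2((stem + 1)/(progenitor + 1)). The median of the double-positive cells was -1.0 in both CTRL libraries, 0 in BU 1 and 0.29 in BU 2. Gfra1-only cells had medians of 1.47, 1.58, 1.58 and 1.95, and progenitor-only cells of -2.32, -2.17, -1.58 and -1.58. In CTRL, 45% and 51.0% of double-positive cells lay between the lower quartile of Gfra1-only cells and the upper quartile of progenitor-only cells of the same library, 16.7% and 12.2% lay at or above the former and 38.3% and 36.7% at or below the latter. In BU, 26% and 22.7% lay between, 40% and 45.5% at or above the lower quartile of Gfra1-only cells and 34% and 31.8% at or below the upper quartile of progenitor-only cells. The quartiles were 0.25 and -1.58 in CTRL 1, 0.70 and -1.39 in CTRL 2, 0.42 and -1.0 in BU 1, and 1.0 and -0.58 in BU 2, so the interval between them was narrower in BU. UMIs of both lists were found in 74.2%, 79.6%, 74.0% and 68.2% of double-positive cells, 79.0%, 60.0%, 68.4% and 58.9% of Gfra1-only cells and 50.5%, 41.0%, 32.8% and 30.7% of progenitor-only cells. Per cell the mean was 2.36, 2.06, 3.22 and 3.05 stem UMIs and 5.39, 4.39, 2.94 and 2.00 progenitor UMIs, so that single-cell ratios carry a large counting error.

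**Figure D4:**
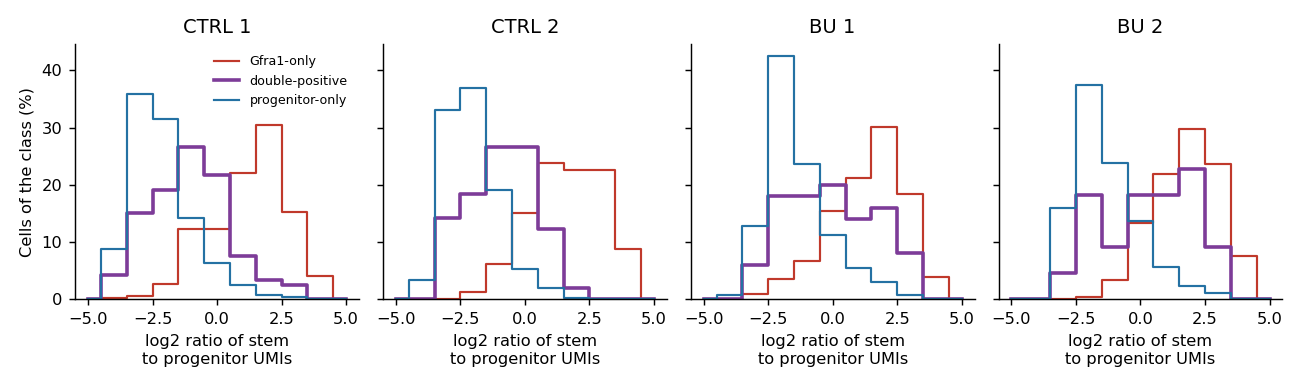
Distribution over cells of log2((stem UMIs + 1)/(progenitor UMIs + 1)) at 5000 UMIs per cell, as the percentage of cells of each class in bins of 1 log2 unit, for each library. Double-positive cells (purple) have a median of -1.0 in both CTRL libraries and of 0 and 0.29 in BU, and reach into the ranges of both other classes in each library.

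Finally, the double-positive cells of BU were compared with those of CTRL. With condition as the only term, 0 of 9466 genes were called by edgeR (0% of genes; 251 had an unadjusted p under 0.05, and DESeq2 called 1 gene). The library numbers were taken to pair CTRL and BU by experiment. With the experiment as a block 100 genes were called (1.06%), 63 higher (0.666%) and 37 lower (0.391%) in BU. With so few sums, the p-values of the blocked fit rest mostly on a spread shared across genes. Without the cells of shared barcodes the blocked fit called 39 of 8454 genes, 33 of them among the 100. Without cells over 3 times the median depth it called 97, and with every cell at 5000 UMIs 0 of the 4734 genes that could then be tested (280 at an unadjusted p under 0.05). The 5 largest rises in that fit were *Lhx1*, *Mpzl2*, *S100a11*, *Phlda1* and *S100a10*. *Lhx1*, at 7.87 and 7.10 CPM in CTRL and 47.8 and 88.0 CPM in BU, was higher by 3.19 ± 0.40 with the block (adjusted p = 1.37e-11) and had an adjusted p of 0.91 without it. *S100a11*, a calcium-binding protein gene, was at 14.0 and 14.7 CPM in CTRL and 81.9 and 82.2 CPM in BU (2.48 ± 0.34, adjusted p = 2.57e-09 with the block). Neither gene's levels overlapped between the conditions. The 5 largest falls were *Onecut2*, *Hspg2*, *Upp1*, *Phlda2* and *Oasl2*. *Onecut2*, a CUT homeobox factor gene, was at 34.1 and 36 CPM in CTRL and 6.82 and 3.32 CPM in BU (-2.93 ± 0.52, adjusted p = 2.59e-05 with the block), and *Oasl2*, an interferon-induced gene, at 70.8 and 63.4 CPM and at 20.5 and 20.8 CPM.

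By list and with the block, in which 0.666% of all genes were higher and 0.391% lower (0 without it), 3 of 14 stem genes were higher in BU and 0 lower (*Nefm*, *Lhx1* and *Bcl6b*), and 3 of 10 progenitor genes were lower and 0 higher (*Upp1*, *Ddit4* and *Lin28a*). *Bcl6b*, a GDNF-responsive repressor gene, was at 8.74 and 6.59 CPM in CTRL and 25.6 and 42.3 CPM in BU (2.18 ± 0.47, adjusted p = 0.00125). *Etv5* and *Tcl1* did not pass the test (adjusted p = 0.89 and 0.889). Of 18 mitotic genes 5 were higher and 0 lower, among them *Mki67*, the Ki-67 antigen (26.2 and 115 CPM in CTRL, 119 and 232 CPM in BU, adjusted p = 0.000225), and *Top2a* (90.0 and 194 against 256 and 344 CPM, adjusted p = 0.00335). For these 2 genes the libraries of the second experiment were higher than those of the first in each condition. Of 17 S-phase genes 3 were higher and 0 lower, and of 8 spermatid genes 0 were called. Of these 8, 3 were lower in BU without the cells of shared barcodes, and 3 without cells over 3 times the median depth. With every cell at 5000 UMIs 0 of the 6 spermatid genes tested were called. Without the cells of shared barcodes the 3 stem genes were still called, *Ddit4* was not (adjusted p = 0.189), and 0 mitotic and 0 S-phase genes were called (*Mki67* adjusted p = 0.265, *Top2a* adjusted p = 0.459). Of 19 genes that the study had named for regenerating spermatogonia, 8 were higher and 3 lower, or 3 and 2 without the cells of shared barcodes. Those genes were picked on these libraries, among others, so this count is not independent evidence. They include *Epcam*, an adhesion molecule (105 and 111 against 259 and 283 CPM, adjusted p = 0.000229), and *Usp26*, an X-linked deubiquitinase gene (64.7 and 183 against 232 and 347 CPM, adjusted p = 0.000229). Whether these differences belong to double-positive cells in particular was asked by testing whether the gap between double-positive and Gfra1-only cells differed between BU and CTRL: 0 of 11704 genes were called (0%), with 608 at an unadjusted p under 0.05 and 0 called by DESeq2. In Gfra1-only cells too, *Upp1* was at 27.8 and 11.9 CPM in CTRL and 4.84 and 2.5 CPM in BU, and *Lhx1* at 54.9 and 123 CPM and at 136 and 183 CPM. The gap's median log2 change from CTRL to BU was 0.62 over 16 stem genes (14 positive) and 0.00 over all genes. It was 0.58 over 10 readouts of GDNF and FGF signalling (8 positive) and -0.52 over 10 progenitor genes (3 positive), without a call in these lists. Without the experiment block and without shared barcodes, both comparisons called 0 genes. Between BU and CTRL without the block, leaving out CTRL 1, CTRL 2 or BU 1 gave 43, 253 and 9 calls, and in the test of the gap leaving out CTRL 1 gave 78, each with a lone library whose spread is taken from the others.

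**Figure D5:**
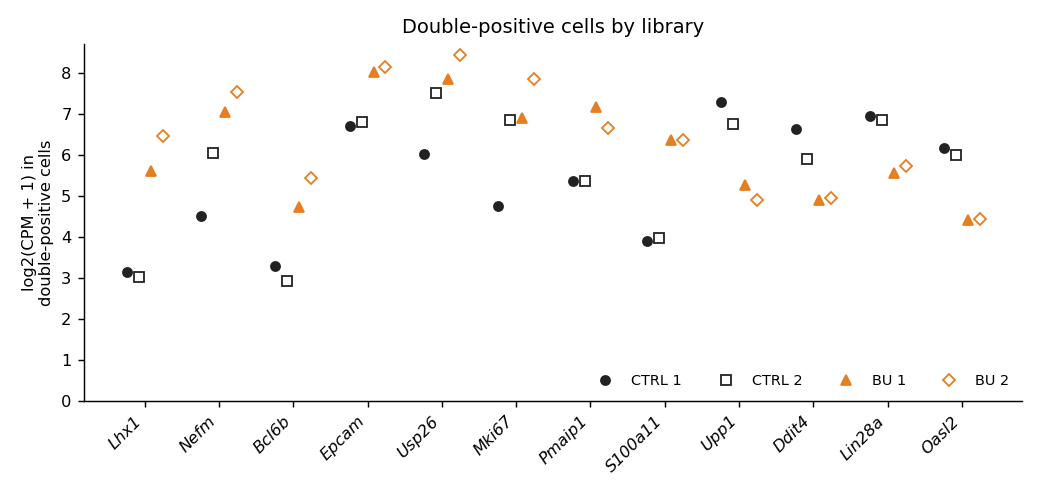
log2(CPM + 1) of 12 genes in the summed double-positive cells of each library (CTRL black, BU orange, open symbols for the second experiment). The 8 genes from *Lhx1* to *S100a11* were higher in BU and the 4 from *Upp1* to *Oasl2* lower, with the experiment as a block, and edgeR called none of the 12 without it.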

How the data were processed

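The counts used here are UMIs per gene and cell as deposited by the authors, 1 matrix per library, made with Cell Ranger (3.0.2 per the file headers). The annotation listed 27998 genes in the first experiment and 31053 in the second, of which 27514 were common and used. The submitters' notes name GRCm39 and Seurat 3.2, the paper's methods mm10; gene positions are from GENCODE M21 on GRCm38, for 27403 of the 27514 identifiers. The labels give reagent kit version 2 for the first experiment and 3.1 for the second, while the paper's methods name version 2 throughout. Cells, classes and levels were computed as the Results state. Classes were summed per library and tested with edgeR 4.0.16 (filterByExpr, TMM, quasi-likelihood F-test, Benjamini-Hochberg over all genes tested, threshold 0.05) in R 4.3.3, a standard error being the log2 fold change divided by the square root of F, with DESeq2 1.42.0 as alternative. On simulated counts for double-positive against Gfra1-only the code was tested before use. Doublets were scored with scrublet in scanpy 1.11.5 and kept unless stated. Genes named are those of 14 lists (for stem cells, progenitors, all undifferentiated spermatogonia, differentiation, S phase, mitosis, growth factor response, DNA methylation, adhesion, the study's regenerative genes, stress, spermatocytes, spermatids and somatic cells) and, per comparison, the 10 called genes (5 for BU against CTRL) with the largest change in each direction at a mean of at least 20 CPM that changed the same way in every library. The members, lists and tests were chosen with earlier results of these data known. The titles give a replicate number and no experiment. Libraries of the same number share kit version and annotation and were taken as 1 experiment, which pairs CTRL and BU libraries. Deviations of CTRL 1 and BU 1 double-positive sums from their group means correlated at 0.482 across genes. In a comparison of 2 libraries with 2, the spread behind a p-value is that between pools of mice and preparations. It is estimated in part across genes. With the experiment as a block so few sums are left that the p-values rest mostly on a spread shared across genes. Intervals and limits from a count of 0 cover counting error only. Sums cannot tell fewer expressing cells from less RNA per cell.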

Additional observations from a re-analysis of the deposited data

Results flagged for a closer look

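CTRL 2 and BU 2 shared 677 cell barcodes, against 11 for CTRL 1 and BU 1 and 0 or 1 for the other pairs. Among cells that passed the filters 70 barcodes were in both, and 1 was double-positive in both. This drew attention because barcodes, a property outside the main measurement, were shared above the level seen in the other pairs of libraries. Its part in the results was not tested beyond leaving those cells out. No group held the 4 samples needed to look for a single outlying library.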

How the results depend on the processing

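Of the alternatives, leaving out cells of shared barcodes, very deep cells or cells without a *Dazl* UMI, thinning every cell before summing, each of these together with the experiment block except the *Dazl* setting, and the share among *Sox3*/*Neurog3*+ cells were chosen after seeing the data. Against Gfra1-only cells 1781 genes were called with no filter on low counts, 3 without the replicate block, 195 with the gate at 1 depth, 250 with every cell at 5000 UMIs, and 507 to 805 with 1 library left out. Against progenitor-only cells the counts were 1134 with no filter, 38 without the block, 100 at 5000 UMIs, and 210 to 471 with 1 library left out. Between Gfra1-only and progenitor-only cells 1207 genes were called without the block and 2351 at 5000 UMIs. Between BU and CTRL 1 gene was called by DESeq2, 14 with no filter, 100 with the experiment as replicate block (39 with it and without shared barcodes, 97 with it and without very deep cells, and 0 with it and every cell at 5000 UMIs) and 0 to 253 with 1 library left out; for the gap between classes 25 were called with no filter and 0 to 78 with 1 library left out. Outside both classes lay 52 genes with no filter, 0 without the block, 5 without shared barcodes, 0 at 5000 UMIs and 1 to 11 with 1 library left out. Shares, as BU minus CTRL in percentage points, were, among Gfra1+ cells, -20.2 at 1 depth, -15.4 without shared barcodes, -20.1 with any UMI and -3.80 with levels over 3. Among all cells the difference was -1.47 at 1 depth, -0.111 with levels over 3, and reversed to 2.39 with any UMI. Among *Sox3*/*Neurog3*+ cells it was 6.11 at 1 depth, 7.37 without doublets, 7.5 at a mitochondrial share under 10%, 7.20 without other cell types, 8.34 without shared barcodes, 7.23 without deep cells, 7.23 without cells lacking *Dazl*, 20.3 with any UMI and 2.14 with levels over 3. The median position was 0.464 to 0.588 under the other settings and 0.487 to 0.590 with 1 library left out, and was higher in CTRL than in BU in each. Against progenitor-only cells the log2 fold change reversed for *Tmem267* (-0.41, gate at 1 depth), *Lcn2* (-0.52 without shared barcodes, -1.85 to 3.46 with 1 library left out), *T* (-2.16, 5000 UMIs) and *1500015O10Rik* (-5.36 to 4.10 with 1 library left out), and the cause was not tested. Of the values of named genes called against Gfra1-only cells, 880 kept their call under an alternative and 215 lost it, and against progenitor-only cells 861 kept and 228 lost it. Depth limits the genes that can be tested in double-positive cells, of which BU 2 held 23.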
